A study of Drosophila melanogaster with 2 samples.

Results

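Many Drosophila genes are arranged head to head, with the starts of neighbours close together and each read away from the other. The peaks described here lie at such paired promoters. They were found by chromatin immunoprecipitation and sequencing (ChIP-seq) of shuttle craft (stc), whose zinc fingers relate it to human NFX1. Whole Drosophila melanogaster embryos aged 0 to 24 h carried an inserted stc fused to enhanced green fluorescent protein (eGFP), and an anti-GFP antibody was used for the pull-down. There was 1 group with 2 biological replicates, and every embryo collection mixed all cell types of those ages. No control experiment was analysed here, so the background at these promoters was not measured. Each record is a called peak, with a summit position and a signal. A peak was a member when it was not on the X chromosome, its summit was no more than 250 bp from a transcription start site (TSS), and that TSS had a second gene starting on the opposite strand, head to head, up to 500 bp upstream. The list kept between the replicates held 3831 peaks, of which 3124 were on autosomes and 1101 of those were at promoters. The rule took 402 peaks, which is 36.5% of the autosomal promoter peaks (exact 95% confidence interval 33.7 to 39.4) and 12.9% of the autosomal peaks. They lay at 424 gene pairs. The other 699 autosomal promoter peaks had no such neighbour at a TSS within reach, and 2023 autosomal peaks were away from promoters.

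A promoter between head-to-head genes has a stretch of DNA that serves as the upstream region of both. Transcription starts near each end and runs outwards. In Drosophila such pairs are often genes that most cells use, and their promoters tend to be kept free of nucleosomes. The DNA replication-related element (DRE), bound by DREF, and the insulator protein BEAF-32, which reads an overlapping sequence, are known at many of them. A ChIP summit marks the base at which the reads of a peak pile highest, which gives the position of the crosslinked DNA only roughly. A summit in a shared promoter belongs to neither gene alone, so values below are given per peak or per pair.

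The DNA under the summits of 8 of the strongest members is printed here because the position and the base composition of the summit are the main results. These are the 8 strongest members whose summit lay between the start sites. Strong members with the summit outside the gap were left out, so the 8 do not show how often a summit lies between the starts. Among the 25 strongest members it lay there at 16. Each stretch lies between the start sites of its pair and holds no annotated exon. It is given on the plus strand of the dm6 (Release 6) genome, read from the RefSeq assembly, with the 21 bases centred on the summit in capitals. The gene on the left is read leftwards and the gene on the right rightwards. Most are the whole gap between the start sites, and those of mRpS23/CenG1A and CG5611/Mtl are the part of it around the summit.
CG7601/CIA30 (chr3R:29736746-29736964, plus strand): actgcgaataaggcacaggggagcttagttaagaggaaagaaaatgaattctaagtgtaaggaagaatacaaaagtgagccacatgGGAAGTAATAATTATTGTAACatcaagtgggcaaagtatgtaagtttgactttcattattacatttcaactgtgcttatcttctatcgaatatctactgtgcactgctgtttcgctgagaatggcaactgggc
mRpS23/CenG1A (chr2L:13835318-13835563, plus strand): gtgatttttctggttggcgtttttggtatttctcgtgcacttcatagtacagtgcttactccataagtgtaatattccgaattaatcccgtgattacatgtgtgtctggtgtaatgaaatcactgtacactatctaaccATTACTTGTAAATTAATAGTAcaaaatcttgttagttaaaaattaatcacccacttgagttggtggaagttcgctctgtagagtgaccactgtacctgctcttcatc
Art3/mRpS10 (chr3R:15229409-15229664, plus strand): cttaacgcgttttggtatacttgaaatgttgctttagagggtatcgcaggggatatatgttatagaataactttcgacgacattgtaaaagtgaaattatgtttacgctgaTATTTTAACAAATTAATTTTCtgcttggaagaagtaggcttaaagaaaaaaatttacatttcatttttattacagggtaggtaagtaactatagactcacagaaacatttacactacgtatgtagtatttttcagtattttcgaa
Tcs5/CHMP2B (chr3L:5139396-5139618, plus strand): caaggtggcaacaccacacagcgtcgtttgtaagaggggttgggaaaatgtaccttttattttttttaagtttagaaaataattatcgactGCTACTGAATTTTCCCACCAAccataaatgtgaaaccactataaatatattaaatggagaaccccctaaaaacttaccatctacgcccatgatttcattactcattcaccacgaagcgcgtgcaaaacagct
CG5611/Mtl (chr3R:27636061-27636360, plus strand): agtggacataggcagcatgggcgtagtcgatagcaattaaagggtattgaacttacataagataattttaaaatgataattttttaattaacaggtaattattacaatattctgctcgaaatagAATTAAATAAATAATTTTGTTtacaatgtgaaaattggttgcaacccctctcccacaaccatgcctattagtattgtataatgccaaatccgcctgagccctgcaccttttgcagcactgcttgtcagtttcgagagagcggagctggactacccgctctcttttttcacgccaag
CG13390/CG17294 (chr2L:8376798-8377034, plus strand): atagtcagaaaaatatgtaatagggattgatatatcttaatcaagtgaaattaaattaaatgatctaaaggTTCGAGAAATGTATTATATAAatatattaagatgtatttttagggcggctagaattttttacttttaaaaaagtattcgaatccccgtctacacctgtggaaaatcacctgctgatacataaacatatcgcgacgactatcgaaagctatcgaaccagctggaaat
fws/Lamtor3 (chr2L:17481030-17481230, plus strand): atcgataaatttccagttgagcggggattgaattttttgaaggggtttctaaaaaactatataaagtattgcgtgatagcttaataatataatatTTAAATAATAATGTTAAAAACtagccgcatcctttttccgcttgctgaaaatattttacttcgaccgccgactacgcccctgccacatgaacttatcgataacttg
Mkk4/SLIRP2 (chr3R:8650797-8651083, plus strand): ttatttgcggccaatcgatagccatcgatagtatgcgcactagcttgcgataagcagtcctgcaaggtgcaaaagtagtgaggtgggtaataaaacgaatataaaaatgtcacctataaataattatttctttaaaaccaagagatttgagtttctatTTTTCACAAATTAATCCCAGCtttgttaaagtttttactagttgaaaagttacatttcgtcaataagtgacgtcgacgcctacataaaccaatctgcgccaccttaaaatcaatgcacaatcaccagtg
In the 8 stretches A+T made up 61.9% to 69.9% of the bases, and among the capitals 57.1% to 95.2%. The lowest value among the capitals was that of Tcs5/CHMP2B and the highest that of CG5611/Mtl. The letters AAATTAAT stand in the capitals of mRpS23/CenG1A, Art3/mRpS10 and Mkk4/SLIRP2, a word taken up below.

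The strongest member lay between CG7601 (FBgn0027583) and CIA30 (FBgn0039689), an assembly factor of respiratory complex I. Its peak, on 3R between 29736704 and 29736986, had a signal of 1417 and ranked 7 in the whole list. In the replicates' own ranked lists its signal was 728 in replicate 1 and 735 in replicate 2, at ranks 7 and 6. The summit lay 97 bp from the start of CG7601 and 123 bp from that of CIA30, whose gap is 220 bp. The signal is the value deposited by the authors. The sources used here do not state how it was scaled, and it serves only to rank and describe peaks.

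Several of the next strongest pairs joined a gene of the mitochondrial ribosome to an unrelated gene. The peak at mRpS23 (FBgn0260407) and CenG1A (FBgn0028509), the second an Arf GTPase-activating protein, had a signal of 1409, with 708 in replicate 1 and 709 in replicate 2. Its summit was 97 bp from the start of CenG1A and 395 bp from that of mRpS23, the most uneven position among the 8 stretches above. Art3 (FBgn0038306), an arginine methyltransferase gene, and mRpS10 (FBgn0038307) shared a peak of 1365, with 696 and 670 in replicates 1 and 2. There the summit lay 122 and 135 bp from the starts, 6.5 bp from the middle of the gap. The pair of mRpL23 and CG9004 had a peak of 993, with 551 and 437 in replicates 1 and 2, whose summit lay outside its 50 bp gap.

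Chro (FBgn0044324), which encodes the chromatin protein Chromator, is paired with Ssl1, a subunit of the transcription factor TFIIH. Their peak had a signal of 1350, with 724 in replicate 1 and 625 in replicate 2, and its summit lay 79 bp inside Chro, counted from the nearest annotated start. Tcs5, the kinase subunit of the KEOPS tRNA modification complex, and CHMP2B, a subunit of the membrane-cutting ESCRT-III complex, shared a peak of 1339 with a summit 102 and 122 bp from their starts. CG5611 and Mtl had 1145, and CG13390 with CG17294 had 1129. The pair of fws, a subunit of the COG tethering complex of the Golgi, and Lamtor3, of the lysosomal Ragulator complex, had 932, with the summit 106 and 96 bp from the starts. At Mkk4, a MAP kinase kinase, and SLIRP2, a mitochondrial RNA-binding protein, the signal was 897. At brm, the ATPase of a SWI/SNF chromatin remodeller, and Arl1, a Golgi GTPase, it was 707, and the summit was 133 bp from each start.

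Among the 25 strongest members found in both replicates' own thresholded lists, signals ran from 688 to 1417 and ranks reached 90 in replicate 1 and 198 in replicate 2. Both genes were protein-coding in 23 pairs. The exceptions were eIF6, a factor of ribosome assembly, paired on 2R with the antisense RNA asRNA:CR45928 at a signal of 1123, and brwl, paired with lncRNA:CR44149 at 704. The others with a named gene were Pex11ab/CG8320 (1063, peroxisome division), tank/CG12194 (957), CG1275/Elp5 (954, Elongator complex), Fbw5/CG9147 (925), Mnat9/CG1792 (840), CG13933/PolD2 (758, DNA polymerase delta), Reps/l(2)gd1 (701), Pdrg1/Pal1 (696) and Atat/Shc (688). In 4 of the 25 pairs both genes are known only by a CG number. The ratio of replicate 1 to replicate 2 signal ran from 0.836 to 1.81, and it was above 1 in 18 of the 25. The highest ratio was that of Atat/Shc, with 441 in replicate 1 and 243 in replicate 2. The 25 gaps ran from 29 to 492 bp with a median of 230, and the summit lay 24 to 155 bp from the nearer TSS with a median of 97.

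Over all members the signal had a median of 154 with quartiles of 106 and 263. It was 131 over the other promoter peaks and 119 over peaks away from promoters. Signals above 500 were found in 38 members (9.45%), against 50 of the other promoter peaks (7.15%) and 48 of those away from promoters (2.37%). At the low end, 16 members had signals of 2.91 to 29.5, none of them was in both replicates' own lists, and 15 had no counterpart in the ranked list of at least 1 replicate. The pairs were spread over the large arms. Of the members 97 were on 2L, 87 on 2R, 102 on 3L and 116 on 3R. None was on the small chromosome 4, where 0 of 16 pairs had a peak, which allows a share of up to 20.6%.

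Members were found in both replicates more often than other promoter peaks. Of the 402, 250 overlapped a peak of each replicate's own thresholded list (62.2%, 57.2 to 66.9), against 360 of the 699 other promoter peaks (51.5%, 47.7 to 55.3). The difference was not tested, since peaks of 1 pair of libraries are not replicates. A peak was shared when at least 50% of the shorter one overlapped. The members in both lists had a median signal of 227, the 51 in replicate 1's list only 113, the 47 in replicate 2's list only 106, and the 54 in neither list 81.7. Of the other promoter peaks, 47 were in replicate 1's list only and 156 in replicate 2's list only. The 2 lists held 2782 and 3806 peaks over the whole genome. The members were thus split nearly evenly between the replicates, while the other promoter peaks leaned to replicate 2.

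The deeper ranked lists of the replicates gave a signal in both for 376 members. The median ratio of replicate 1 to replicate 2 was 1.01 with quartiles of 0.799 and 1.25, and 196 of 376 were higher in replicate 1. For the 656 other promoter peaks ranked in both it was 0.812, with 178 higher in replicate 1. A difference of more than 2-fold was seen in 9 members towards replicate 1 and in 12 towards replicate 2. Across the 376 members the signals had a Spearman correlation of 0.800 and a Pearson correlation of log10 signals of 0.876, as a description over peaks chosen for their reproducible rank. The summits of the 2 replicates lay a median of 19 bp apart, and within 20 bp of each other at 196 members (52.1%, 46.9 to 57.3).

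**Figure D1:**
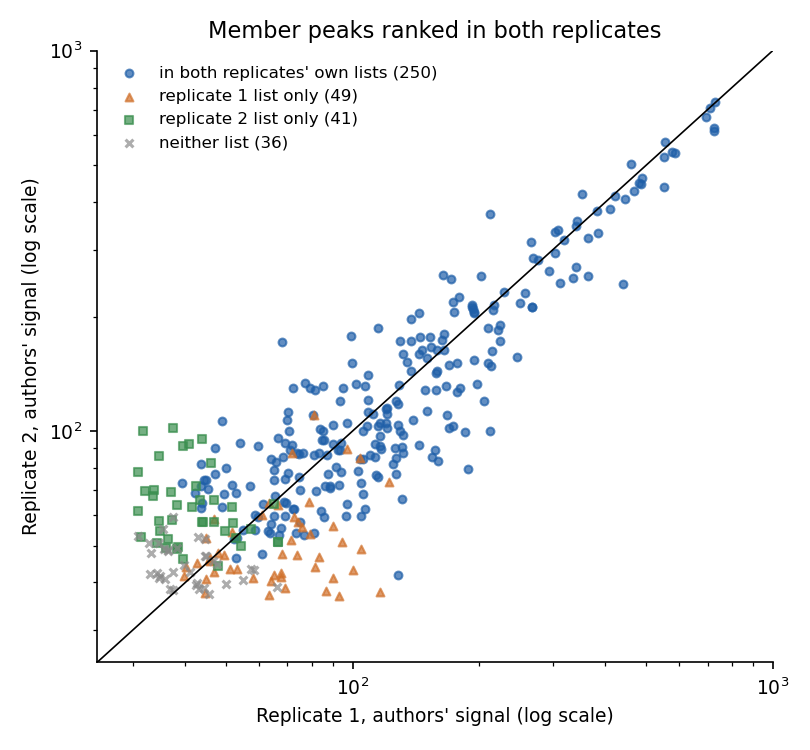
Signal in replicate 1 (horizontal, log scale) and replicate 2 (vertical, log scale) of the 376 members ranked in both, with each point a peak, its colour and shape the own lists it was found in, and the line equal signal. Points of members in both lists follow the line up to the highest signals, while those in 1 list or neither lie at the low end.

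Coding genes with a head-to-head neighbour had a peak at their start at a higher share than coding genes without one. A pair is called bound here when it has a member summit, which without a control says no more than that a peak was called. Of all 2119 autosomal head-to-head pairs, 424 (20.0%, 18.3 to 21.8) had a member summit. Counted by gene, 791 of 3999 genes with such a neighbour (19.8%) were in a bound pair. Of 11352 genes without a neighbour, 608 had a summit within 250 bp of a TSS (5.36%, 4.95 to 5.79). The measures differ, since a gene in a bound pair can have the summit more than 250 bp from its own TSS. Counts on a like measure are given below for coding genes. A pair offers a peak 2 chances to be near a TSS. The count was also made per gene and for protein-coding genes only. That does not remove the extra chance, since a summit near both starts of a pair counts for both genes. Both start sites were within 250 bp of the summit at 279 of 402 members (69.4%). What this adds to the share was not tested. A summit lay within 250 bp of the gene's own TSS for 719 of 3524 coding genes with a neighbour (20.4%, 19.1 to 21.8) and 540 of 8225 without one (6.57%, 6.04 to 7.12). The difference was not tested, and the part that expression of the genes plays in it was not tested.

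The count differed by kind of gene. Pairs of 2 coding genes had a member peak in 392 of 1706 cases (23.0%, 21 to 25). Pairs of a coding gene and a non-coding RNA had one in 22 of 280 (7.86%, 4.99 to 11.7), and pairs of 2 non-coding RNAs in 1 of 59. The 22 peaks at coding and non-coding pairs had a median signal of 113, below the 164 of the 369 peaks assigned to 2 coding genes. A transfer RNA gene was paired with a coding gene in 15 cases, of which 4 had a peak. Of 21 pairs of 2 tRNA genes, 2 had one. On the arms, the share of pairs with a peak was 18.7% on 2L, 16.9% on 2R, 23.5% on 3L and 21.5% on 3R, with intervals that overlap.

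One locus weighs on the count of pairs. The mod(mdg4) gene on 3R makes its mRNAs by trans-splicing, and its alternative 3' ends are annotated as many small precursor genes on both strands. A single peak there, from 21365353 to 21365499 with a signal of 290, counted for 21 pairs. Without that locus 403 of 2082 pairs (19.4%, 17.7 to 21.1) had a peak. Elsewhere 375 members lay at 1 pair, 24 at 2, 1 at 3 and 1 at 4. In the other direction, 23 pairs had 2 member peaks and 2 pairs had 3.

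The share of pairs with a peak differed with how far apart their starts were. The rule reaches up to 250 bp beyond each start, so wider gaps offer more bases for a summit. What this contributes was not tested. Outside the mod(mdg4) locus, 117 of 849 pairs with a gap of up to 200 bp had a member peak (13.8%, 11.5 to 16.3). At gaps from 201 to 400 bp it was 231 of 956 (24.2%, 21.5 to 27.0), and above 400 bp 55 of 277 (19.9%, 15.3 to 25). In bins of 50 bp the lowest share was 8.59% (5.08 to 13.4), at 151 to 200 bp, and it stood next to the highest, 29.8% (24.3 to 35.8) at 201 to 250 bp. The bins were set at round numbers, the gap of a pair was its smallest, and a trend was not tested.

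**Figure D2:**
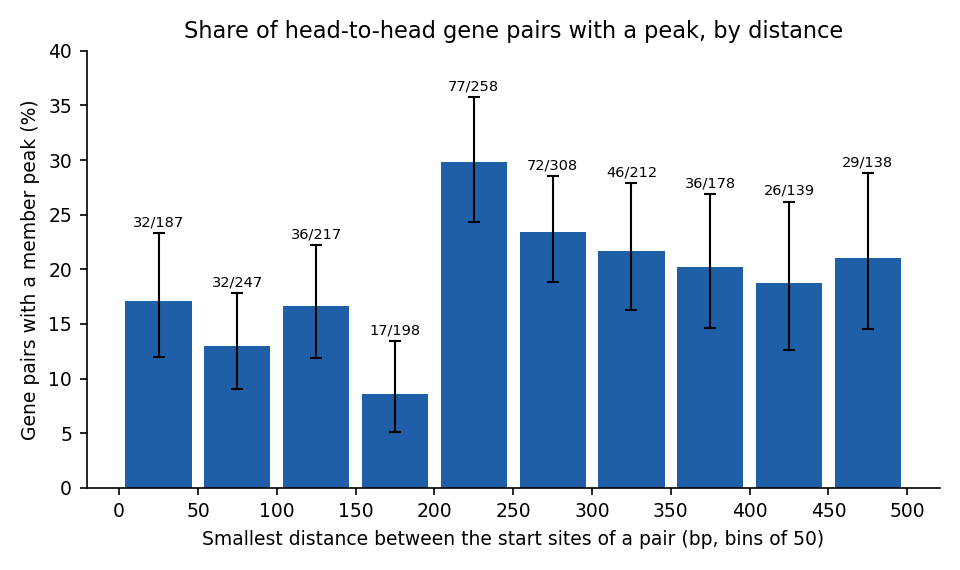
Share of autosomal head-to-head gene pairs with a member peak (vertical, %) by the smallest distance between their start sites (horizontal, bins of 50 bp), without the mod(mdg4) locus, with exact 95% intervals and the counts above each bar. The bar at 151 to 200 bp is the lowest and the bar at 201 to 250 bp the highest.

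Most summits lay between the paired starts. Of the 402 members, 296 had the summit between the start sites of the nearest pair of TSSs (73.6%, 69.0 to 77.9). Of the bases from which the rule could have taken a summit, 35.0% lie between the starts. Among summits between the starts, the median distance was 37 bp to the middle of the gap and 98 bp to the nearer TSS, and 181 lay within 50 bp of the middle. For comparison, summits spread evenly over the same gaps would lie a median of about 72 bp from the middle. Both start sites were within 250 bp of the summit at 279 members (69.4%, 64.6 to 73.9), and the peak itself covered both at 126 (31.3%). Coverage rests on the called width of a peak, which was the same 350 bp at 267 members (66.4%). Among the 100 strongest members the median width was 214 bp.

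The position changed with the gap. Where the starts were 201 to 300 bp apart, 131 of 143 summits were between them (91.6%), a median of 24 bp from the middle and 97 bp from the nearer TSS. An even spread over those gaps would give 62.8 bp from the middle. At 301 to 400 bp it was 76 of 89, at a median of 118 bp from the nearer TSS and 61 bp from the middle, with 87.5 bp for an even spread. At 401 to 500 bp it was 56 of 68, at 121 bp from the nearer TSS and 98 bp from the middle, with 110 bp for an even spread. The distance to the nearer start thus differed less between these bins than the distance to the middle. At 101 to 200 bp 28 of 53 summits were between the starts (52.8%), and their 37.5 bp from the middle was close to the 37.8 bp of an even spread. The closeness to the middle thus rested mainly on the gaps of 201 to 300 bp. Where the starts were up to 100 bp apart, 5 of 49 summits lay between them (10.2%), close to the 9.52% of the allowed bases there. Several strong members of that kind had the summit about 100 bp from both starts, beyond the start of 1 gene. At eIF6/asRNA:CR45928, with a gap of 29 bp, it was 102 bp upstream of eIF6 and 73 bp inside the antisense RNA gene. At Pex11ab/CG8320, with a gap of 33 bp, it was 130 bp upstream of Pex11ab and 97 bp inside CG8320.

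**Figure D3:**
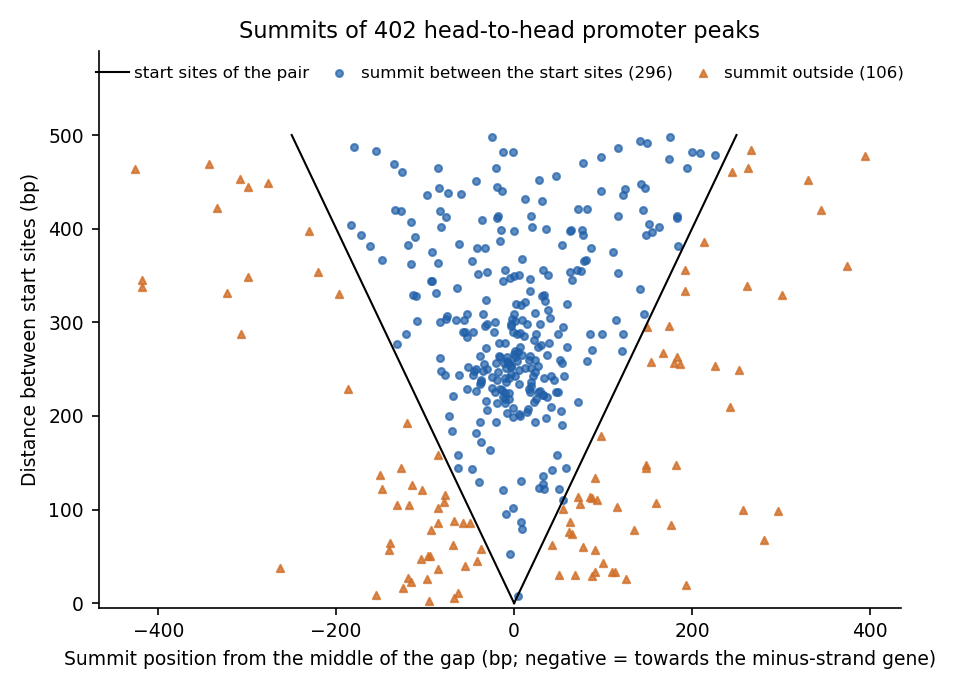
Position of each member's summit from the middle of the gap (horizontal, bp, negative towards the minus-strand gene) against the distance between the start sites (vertical, bp), with the start sites as black lines and each point a peak. The 296 summits between the starts crowd at the middle where the gap is 201 to 300 bp and spread out in wider gaps, and most summits of the narrowest gaps are among the 106 outside.

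The start site used bears on this count, since many genes have several. With the widest gap of each pair in place of the nearest start sites, 82.8% of summits lay between the starts (78.8 to 86.4), a choice made after seeing the values. With only the farthest 5' start of each gene it was 70.5% of 346 peaks. The stronger members were more often between the starts, at 80 of 100 among those of highest signal and 62 of 102 among those of lowest signal. Members in both replicates' own lists had 78.8% between and the other 152 had 65.1%. Measured from the nearest TSS of either gene, 183 members had the summit 75 to 150 bp upstream (45.5%, 40.6 to 50.5), against 198 of 699 other promoter peaks (28.3%, 25 to 31.8). The share upstream at any distance was close, 74.6% of members and 75.8% of other promoter peaks. A summit between paired starts cannot lie farther from the nearest TSS than the middle of the gap does. The median gap of the members was 265 bp, while other promoter summits can lie up to 250 bp upstream. The difference at 75 to 150 bp was not tested, nor was what this limit contributes to it.

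Member summits were A+T-rich, with a narrow rise over the summit. In 101 bases centred on the summit A+T was 68.7% ± 10.3 (SD over 402 members), against 53.7% in windows 300 bp to either side. It was 62.8% ± 11.9 at the other promoter summits and 66.5% ± 9.99 away from promoters. The middles of head-to-head pairs without a peak had 65.1% ± 10.6 over 1695 pairs, and those with a peak had 68.6% ± 11.1 over 424. In windows of 21 bases the member summits reached 70.8%, against 62.9% at other promoter summits and 67.5% at summits away from promoters. The middles of pairs without a peak had 64.9%. Those of pairs with a peak had 68.3%, and 70.0% at 20 bp to one side. Among members A+T followed the signal. With the members split into 4 groups by signal, it was 72.8% ± 8.62 in the highest, 71.0% in the next, 67.5% in the one after and 63.6% ± 11.0 in the lowest. These spreads are over peaks, not over embryos, and no test was made.

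**Figure D4:**
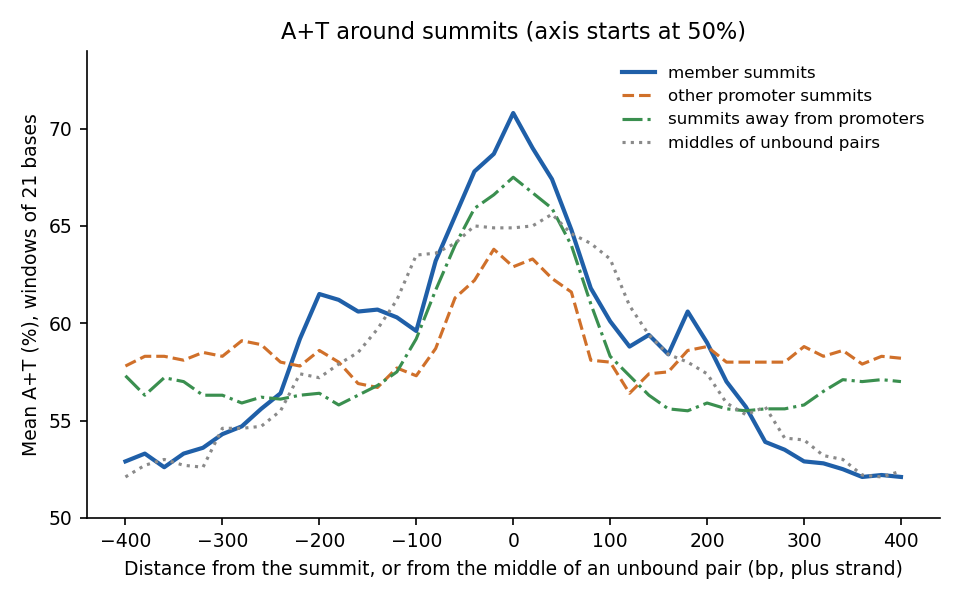
Mean A+T in windows of 21 bases (vertical, %, axis from 50%) by distance from the summit, or from the middle of pairs without a peak (horizontal, bp), for member summits, other promoter summits, summits away from promoters and middles of unbound pairs. The member curve has the highest and sharpest top, 70.8% at the summit.

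Short words over the summits were runs of A and T. Of all words of 6 bases, read on both strands within 50 bp, the one with the widest margin over the windows to either side was TTAAAA. It was at 46.8% of member summits, against 12.7% of those windows, 31.3% of other promoter summits and 30.2% of the middles of unbound pairs. AAAATA was at 50.2%, against 16.3%, 35.6% and 35.2% in the same sets, and ATTAAA at 37.1%, against 9.70%, 24.3% and 25.8%. At the middles of bound pairs TTAAAA was at 42.2%, AAAATA at 45.8% and ATTAAA at 37.0%. The other 7 of the 10 leading words were likewise made of A and T only. The word AAATTAAT, noticed in the printed stretches after their values were seen, was within 50 bp of 39 member summits (9.70%, 6.99 to 13.0). It was at 3.0% of other promoter summits, 3.51% of summits away from promoters and 3.30% of the middles of unbound pairs. At the middles of bound pairs it was at 7.08% (4.82 to 9.95). In the 4 signal groups, from high to low, it was at 14 of 100, 13 of 100, 7 of 100 and 5 of 102 members. The printed stretches are all in the highest group, so the count there is not independent of how the word was found. Its letters are A and T alone, so its share moves with base composition, and what composition contributes was not tested.

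Most of the 14 promoter motifs searched stood at member summits at shares close to or below those at the middles of unbound pairs. The DRE, TATCGATA, which reads the same on both strands, was within 50 bp of 14 member summits (3.48%, 1.92 to 5.77). It was at 0.871% of windows 300 bp away and 1.29% of other promoter summits, but at 98 of 1695 middles of unbound pairs (5.78%, 4.72 to 7.0). CGATA, the core of the BEAF-32 site, is contained in the DRE. It was at 18.2% of member summits (14.5 to 22.3) and 25.2% of the middles of unbound pairs (23.1 to 27.3). Around member summits the DRE was at 3 of 402 within 25 bp, 14 within 50 bp and 41 within 100 bp. TATAAA, the letters of the TATA box, was at 26.4%, against 22.9% of unbound middles. The core promoter Motif 7, CATCNCTA, was at 3.23% (1.73 to 5.47), against 2.54% of unbound middles. GAGAG, bound by GAGA factor, was at 7.71%, against 9.03% of unbound middles, and GCCAT, bound by Pho, at 11.7%, against 14.7%. Motif 1, GGTCACAC, was at 0.995%, against 3.07%. TGCGCATG, the letters read by the fly NRF1 protein ewg, was at 0 of 402, which allows up to 0.913%. The initiator letters TCAGTT or TCAGTC were at 7.21%, against 10.2% of unbound middles, and AGGNGGC, the core read by CTCF, at 1.24%, against 2.06%. The E-box CACGTG was at 0.746%, against 0.826%, and CAGGTAG, read by Zelda, at 0.249%, against 0.472%. The ETS site CCGGAAG was at 2 of 402 member summits (0.498%, 0.0603 to 1.79), against 1 of 1695 unbound middles (0.0590%). Other promoter summits, at 1.14%, and windows 300 bp away, at 0.746%, had it more often than member summits. The cAMP response element TGACGTCA was at 1 of 402 member summits (0.249%), against 2 of 1695 unbound middles (0.118%). These shares rest on very few matches. These comparisons set windows centred on summits against windows centred on the middles of gaps. At the middles of bound pairs, TATAAA (26.2%), the E-box (1.42%) and TGACGTCA (0.236%) were above their shares at unbound middles. The other motifs were below, among them the DRE at 3.07% and Motif 1 at 1.89%. Member summits were also richer in A+T, and what composition contributes was not tested. A match is a stretch of letters on either strand and no evidence of a bound site.

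Genes of the cytosolic ribosome were the list with the highest share. Of 34 cytoplasmic ribosomal protein genes with a head-to-head neighbour, 24 were in a bound pair (70.6%, 52.5 to 84.9), against 19.8% of all genes with a neighbour. Of the 44 without a neighbour, 23 had a summit within 250 bp (52.3%, 36.7 to 67.5), against 5.36% of all genes without one. One of the 24, RpLP0-like, was taken in by its name and is not a structural protein of the ribosome. The leading members were RpL32, with a signal of 402 (174 in replicate 1 and 206 in replicate 2) and CG7943 as its partner, and RpS27 with 362 (214 and 148) and the nuclear pore gene Nup37. They were followed by RpL34b with 340 (163 and 174) and RpL14 with 337 (138 and 197), whose partner Nelf-E encodes a subunit of the NELF pausing complex. The 24 peaks had a median signal of 189, and 20 of them were in both replicates' own lists. RpL13 is paired with Dref, which encodes the DRE-binding factor, at a signal of 169.

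At most of the ribosomal protein genes the summit lay nearer the gene's own start than the partner's. Over the 23 genes without RpLP0-like, the median distance was 31 bp to the gene's own TSS and 206 bp to the partner's. It was nearer the gene's own start at 21 of the 23, the exceptions being RpL19 and RpL34b. At 16 it was within 50 bp of that start, whereas 81 of the other 379 members (21.4%) had a TSS of either gene within 50 bp. From the middle of the gap their median distance was 75.5 bp, with 8 of 23 within 50 bp, against 55.5 bp and 178 of 379 at the other members. RpS18, whose summit was 2 bp from its start and 297 bp from that of plu, and RpL31, at 14 and 465 bp, are examples. Some lay farther off, RpS20 at 149 bp, RpL34b at 136 bp and RpL32, the strongest, at 120 bp. A+T in the 101 bases at the 23 summits was 55.7% ± 8.57, against 69.5% ± 9.91 at the other members (SD over peaks). The DRE was at 4 of the 23 and 10 of the 379. Among the 4 were RpL41/NaCP60E, RpL34a/Trmt61 and RpS25/CG4820. The list was chosen with earlier results on these data known, and the differences were not tested.

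**Figure D5:**
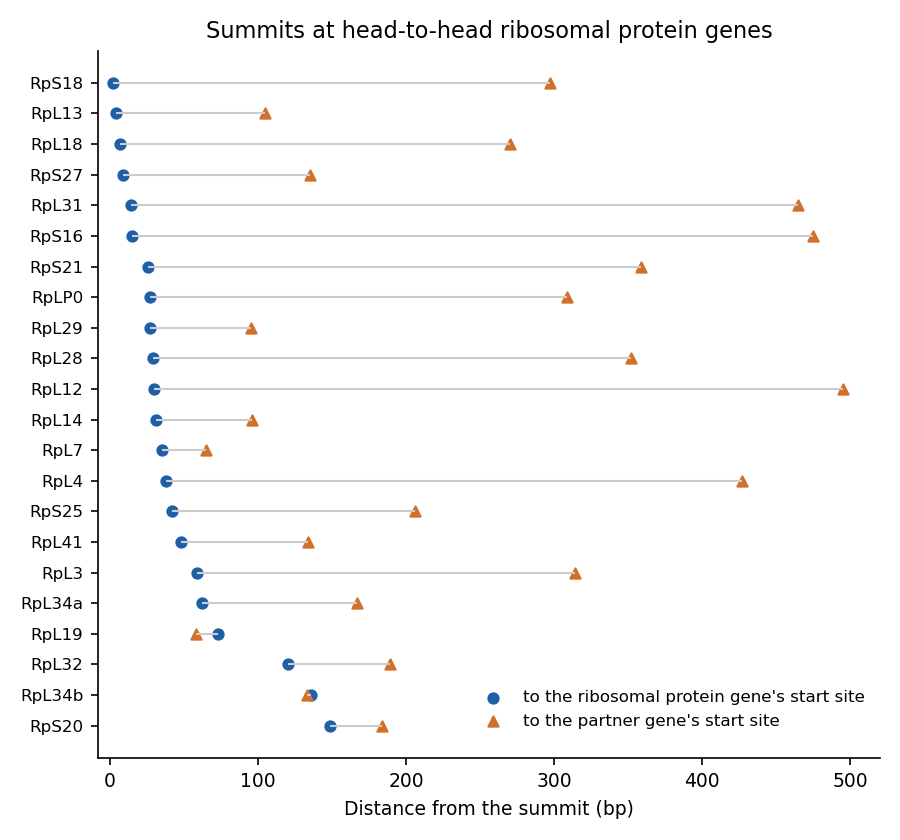
Distance from the summit to the start site of the ribosomal protein gene (circles) and of its head-to-head partner (triangles), in bp, for 22 of the 23 bound ribosomal protein genes with a neighbour. The circle is the nearer mark at 20 of the 22 genes, with RpL19 and RpL34b the exceptions.

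Genes of the mitochondrial ribosome were bound in pairs at 13 of 46 (28.3%, 16.0 to 43.5). Of the 16 without a neighbour, 1 had a summit within 250 bp of its own start. The measures differ, since a bound pair needs a summit near either of its starts. The summit was more than 250 bp from the mitochondrial gene's own start at mRpS23 (395 bp), mRpS24 (282 bp), mRpL20 (276 bp) and mRpL34 (254 bp). The strongest after mRpS23, mRpS10 and mRpL23 was mRpS2, paired with Mon1, at a signal of 609 with 340 in replicate 1 and 270 in replicate 2. Their summits lay 54 to 395 bp from the mitochondrial gene's start, against 2 to 149 bp at the 23 genes of the cytosolic ribosome. Subunits of the general transcription machinery and Mediator were bound at 9 of 28 (32.1%, 15.9 to 52.4). Taf5, a TFIID subunit, had 424 with Pex6 as its partner, Taf2 had 241, TfIIA-L 232 and MED30 212. Vacuolar protein sorting genes were bound at 5 of 13, led by Vps33B with Fur1 at 357, Vps50 at 193, Vps36 at 152 and Vps52 at 117. Nuclear pore genes were bound at 4 of 12, with Nup37 at 362, Nup98-96 at 128, Nup160 at 117 and Nup133 at 107. The intervals of all these lists include the 19.8% of all genes with a neighbour.

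Other lists of general functions had shares near or below that background. In all the lists a gene with a neighbour counts as bound when its pair has a member summit. That summit can lie more than 250 bp from the gene's own start, as at eIF1 (352 bp), CSN5 (316 bp) and Taf2 (292 bp). Translation factors were bound at 5 of 22, with eIF6 at 1123, eIF5B at 222, eIF1, which shares its promoter with RpL28, at 192, and the release factor eRF3 at 113. Aminoacyl-tRNA synthetases were bound at 4 of 19, with GluProRS at 293, IleRS at 258, SerRS at 238 and ProRS-m at 141. RNA polymerase subunits were bound at 3 of 17, with Polr2B at 281, Polr2H at 196 and Polr3E at 132. Oxidative phosphorylation genes were bound at 5 of 32, the highest being ND-MWFE at 252, ND-51 at 136, ATPsynE at 121 and ATPsynCF6 at 93.4. Proteasome genes were bound at 2 of 21, Rpn3 at 162 and Prosbeta2 at 129, which shares its promoter with mRpL39. Of the RNA exosome genes 2 of 11 were bound, Ski6 at 134 and Csl4, the partner of Nup160, at 117. Of COP9 signalosome genes 1 of 5 was bound, CSN5 at 87.9. No gene was bound in a pair among 8 for DNA replication origins and helicase, 3 for tubulin chaperones and the TCP-1 ring, 7 for cuticle proteins and 27 chemoreceptors or odorant-binding proteins. The upper limits for these counts of 0 are 36.9%, 70.8%, 41.0% and 12.8%, so only for the chemoreceptors does the limit fall under 19.8%.

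Peaks lay on both sides of each limit of the rule. The 5 members just inside the 250 bp limit had summits 244 to 249 bp from the TSS and signals of 85.7 to 654. The 5 peaks just outside, at 269 to 330 bp, had 74.1 to 98.2. The 5 members with the widest gaps inside the limit, 487 to 498 bp, had signals of 61.2 to 1409, and the 5 promoter peaks just outside, with gaps of 505 to 509 bp, had 73.9 to 1361.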

How the data were processed

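ChIP-seq of eGFP-tagged stc was deposited for 2 biological replicates, grouped by the replicate numbers of the labels. The files are peak lists on dm6, per the labels. The sources used here give no aligner, peak caller or read depth. The signal of a peak was deposited by the authors as their caller gave it, with no scaling stated. The irreproducible discovery rate (IDR) of a peak was deposited by the authors as −log10 values in the ranked list and used only for a stricter alternative. Chromatin was sheared to 200 to 800 bp, per the labels.

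Start sites were those of Ensembl BDGP6.54 (release 115), without transposable elements, and sequence from the RefSeq Release 6 assembly, whose lengths exceed all peak ends. The members came from the conservative thresholded list. Each peak was assigned to the pair with the start site nearest its summit. The signals of the replicates came from each one's own ranked list, as the strongest peak overlapping by at least 50% of the shorter. Shares carry exact (Clopper-Pearson) 95% intervals, which cover counting error only. No hypothesis test was made, because there was 1 group and peaks are not replicates. The search for 14 motifs and for words covered both strands within 50 bp. Gene lists (16) were made from gene name patterns. The genes named are those of the 25 strongest members found in both replicates' own lists and up to 4 per list. The members and lists were chosen with earlier results of these data known. One ribosomal protein gene, counted among the 23, is not reported here by itself. The selection of members was tested on simulated peaks planted at pairs from the same set of pairs. That checks the selection step only, not how the pairs themselves were found. Python 3.11.15, numpy 2.4.6, pandas 2.3.3 and scipy 1.17.1 were used.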

Additional observations from a re-analysis of the deposited data

How the results depend on the processing

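The 402 members came to 528 with the larger list of the series, 252 at an IDR of 0.001 or less, 237 at 100 bp from summit to TSS and 183 at 250 bp between the starts. Using 1 replicate's own list gave 347 to 376 members. The share of pairs with a peak, 20.0%, was 26.0% with the larger list, 13.1% at the stricter IDR, 11.9% at 100 bp to the TSS, 17.3% at 250 bp between the starts and 23.0% for protein-coding genes, and 17.6% to 18.5% with 1 replicate's own list. The share of summits between the starts, 73.6%, was 68.2% with the larger list, 78.2% at the stricter IDR, 67.9% and 68.8% at 100 and 500 bp to the TSS, 53.0% at 250 bp between the starts, and 82.8% with the widest gap of a pair. It was 68.1% to 79.5% with 1 replicate's own list. Fewer or more peaks and pairs enter by construction in these settings, and the cause of the moves in position was not tested. With 1 base of overlap 66.2% of members were in both own lists, and with 80% of the shorter peak 60.7%. Most motif shares were larger in larger windows, in which more bases are searched. That of ewg stayed at 0 and that of Zelda at 0.249% in all 3 windows. No paired analysis was possible because there is 1 group and no test. The read depth is unknown, so the depth behind a missing peak is too.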

Other observations

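Counting each peak at the pair of its nearest start site, 22 pairs had 23 further peaks beside their strongest one. Those 23 had signals of 2.91 to 164 with a median of 21.7, and 15 were under 30. The highest, at p38a/CG6178, lay beside a peak of 486, and both overlapped the same peak in each replicate's list. It was the 1 further peak found in both own lists. Those at Irbp18/APP-BP1 (96.5) and Pax/Alp12 (61.2) were also well above 30, while the lowest, 2.91 at Csl4/Nup160, was ranked in neither replicate. These pairs were chosen after their values were seen. Some members of middling signal were in 1 replicate's own list only. Xe7/Atg17, at a signal of 203 with 122 in replicate 1 and 73.5 in replicate 2, was the strongest of those in replicate 1's list, and Mkp/Mtch, at 163 and with 81.4 in replicate 2, of those in replicate 2's list. The pair of asRNA:CR42254 and BEAF-32, the gene of the insulator protein, had 3 members with signals of 148, 90.0 and 21.7, the first of them in both own lists.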
